A study of Mus musculus with 8 samples.

Results

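The genes described here are 10 that encode proteins secreted by the endoderm of the yolk sac: *Afp*, *Ttr*, *Rbp4*, *Trf*, *Apoa1*, *Apoa2*, *Apoa4*, *Apom*, *Apob* and *Serpina1b*. They were chosen by name, with their measured values in these same hearts known, so their levels and differences are given as a description without a test. All 10 were found among 24385 features, and all 10 were among the 10018 genes that were tested because their mean reached 1 FPKM (fragments per kilobase of transcript, scaled to the mapped fragments of a library). *Apob* (mean 1.29 FPKM) and *Serpina1b* (13.2 FPKM) lay nearest to that limit, and *Trf* (88.4 FPKM) came next. *Apob* passed it only through E8.5 cKO replicate 1, since its mean over the other 7 libraries was 0.801 FPKM.

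RNA was sequenced from C57BL/6 mouse embryonic hearts at embryonic day (E) 8.5 and E9.5, with 2 libraries in each of 4 groups. The control hearts, labelled wild type (WT), are described by the study as *Dgcr8* loxP/loxP; Rosa26 mT/mG/+ without a Cre allele. The knockout hearts (cKO), labelled Mesp1Cre/+; Dgcr8-/-, are described as carrying *Mesp1* Cre/+ on the same floxed and reporter background. The floxed alleles and the reporter are therefore shared by all 4 groups, and the cKO hearts differ from the controls by the Cre as well as by the excision of *Dgcr8*. *Mesp1* is an early mesoderm gene, so the Cre acts in the mesodermal lineage and its descendants. *Dgcr8* encodes an RNA-binding protein needed to cut microRNA precursors from their primary transcripts. The sources used here do not give the number of embryos in a library.

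Before the liver takes over, the visceral endoderm of the yolk sac makes most of the plasma proteins of the mouse embryo. It takes up maternal nutrients by endocytosis at its apical border and secretes carriers for lipids, retinol, thyroid hormone and iron towards the embryonic blood. Hepatocytes later take over the same genes.

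By an estimate from the value of 1 fragment, the libraries held 12900000 to 18700000 fragments. The least covered values of the 10 genes then rested on about 12 fragments (*Serpina1b*) and 60 fragments (*Apob*), and all values of the other 8 genes rested on at least 401. Over the tested genes, the median level was 7.62 to 9.90 FPKM in the 4 E8.5 libraries and 3.85 to 4.50 in the 4 E9.5 libraries. *Dgcr8* was lower in both cKO libraries than in both WT libraries at each stage (1.64 and 4.67 against 7.10 and 8.60 FPKM at E8.5, 1.15 and 1.77 against 3.49 and 3.23 FPKM at E9.5). The heart genes *Myl7* (12320 to 33660 FPKM) and *Tnnt2* (984.8 to 3157 FPKM) were abundant in all 8 libraries. Markers of visceral endoderm were measured too, at 12.9 to 90.4 FPKM for *Amn* and 0.694 to 6.76 FPKM for *Cubn*, the partners of an apical uptake receptor, and at 0.676 to 2.55 FPKM for the transcription factor gene *Hnf4a*. Several libraries stood apart by genes of other tissues. E8.5 WT replicate 1 held 115.6 FPKM of the granzyme gene *Gzmd* (at most 0.893 elsewhere). E8.5 cKO replicate 2 held 5104 FPKM of the decidual prolactin gene *Prl8a2*, which was also at 448.8 and 1141 FPKM in E8.5 WT. *Prl8a2* was at 9.95 FPKM in E8.5 cKO replicate 1 and at most 5.09 FPKM at E9.5. E9.5 WT replicate 1 was the only library above 0.04 FPKM for *Alb* (4.48 FPKM).

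Among the carriers, *Ttr* encodes transthyretin, which binds thyroid hormone and retinol-binding protein. *Ttr* (chromosome 18) had 205.8 and 547.6 FPKM (WT) and 1393 and 452.4 FPKM (cKO) at E8.5, and 1147 and 695.9 FPKM (WT) and 919.3 and 858.0 FPKM (cKO) at E9.5. *Rbp4* (chr19:38116620-38125321, GRCm38), which encodes the retinol-binding protein of plasma, had 196.7 and 780.9 FPKM (WT) and 2020 and 559.4 FPKM (cKO) at E8.5, and 1418 and 1043 FPKM (WT) and 1222 and 1615 FPKM (cKO) at E9.5. For both genes the lowest library was E8.5 WT replicate 1 and the highest was E8.5 cKO replicate 1, so the extremes of the series lay at the same stage. The E9.5 values of the 2 genotypes overlapped.

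*Afp* (chr5:90490714-90508907), the gene of alpha-fetoprotein, the main plasma protein of the embryo, behaved differently. It had 36.8 and 183.1 FPKM (WT) and 279.6 and 180.2 FPKM (cKO) at E8.5. The E9.5 libraries held 2080 and 1593 FPKM (WT) and 372.5 and 1962 FPKM (cKO). All 4 E9.5 libraries lay above all 4 E8.5 libraries, but E9.5 cKO replicate 1 was 5.27 times below its replicate. *Trf* (chr9:103208876-103230286) encodes transferrin, the iron carrier. Its levels were 10.3 and 31.5 FPKM (WT) and 81.4 and 19.6 FPKM (cKO) at E8.5, and 208.8 and 109.6 FPKM (WT) and 66.2 and 180.0 FPKM (cKO) at E9.5. The same library, E9.5 cKO replicate 1, was the lowest of the E9.5 libraries for *Trf*, and here it lay within the E8.5 range.

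*Apoa1* (chr9:46228630-46230469) encodes the main protein of high-density lipoprotein and was the most abundant of the 10 genes, with a mean of 1511 FPKM. It had 292.0 and 1012 FPKM (WT) and 2945 and 770.6 FPKM (cKO) at E8.5, and 1827 and 1536 FPKM (WT) and 1688 and 2019 FPKM (cKO) at E9.5. The highest library was 10.1 times the lowest, and replicates differed 3.47-fold in E8.5 WT and 3.82-fold in E8.5 cKO, but only 1.19-fold in E9.5 WT. *Apoa4* (chr9:46240844-46243458), the gene of another lipoprotein component, lies in the same cluster. The table places *Apoc3* 2580 bp beyond *Apoa1*, *Apoa4* 5207 bp beyond *Apoc3* and *Apoa5* 25149 bp beyond *Apoa4*. *Apoa4* ranged from 24.2 FPKM in E8.5 WT replicate 1 to 216.9 FPKM in E8.5 cKO replicate 1, with 92.8 to 152.4 FPKM in the 4 E9.5 libraries.

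*Apoa2* (chr1:171221564-171226379), whose product is the second protein of high-density lipoprotein, ranged from 61.9 to 660.9 FPKM at E8.5 and from 321.8 to 785.3 FPKM at E9.5. *Apom* (chr17:35128997-35131752) encodes the lipoprotein component that carries sphingosine-1-phosphate. It was spread over 102.4 to 579.1 FPKM at E8.5 and over the narrower span of 145.9 to 210.0 FPKM at E9.5. *Apob* (chr12:7977677-8016839), the gene of the structural protein of chylomicrons and low-density lipoprotein, was the least abundant of the 10. Its values were 0.988 and 0.889 FPKM (WT) and 4.69 and 0.953 FPKM (cKO) at E8.5, and 0.301 and 1.08 FPKM (WT) and 0.897 and 0.499 FPKM (cKO) at E9.5. Only E8.5 cKO replicate 1 stood clear of the others. The *Apob* transcript is 13934 bp long in the annotation, against at most 3028 bp for the other 9 genes.

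*Serpina1b* (chr12:103728156-103738189) is one of several near-identical mouse genes for alpha-1-antitrypsin, the inhibitor of neutrophil elastase. It had 0.858 and 1.35 FPKM (WT) and 4.23 and 0.658 FPKM (cKO) at E8.5. At E9.5 the values were 59.3 and 9.85 FPKM (WT) and 11.9 and 17.5 FPKM (cKO). All 4 E9.5 libraries were above all 4 E8.5 libraries, and E9.5 WT replicate 1 was 6.03 times its replicate. How reads were divided among the copies is not given in the sources used here, so the split between them is uncertain. *Serpina1c* followed *Serpina1b* at 0.169 to 0.286 of its level in all 8 libraries. *Serpina1e* did not: it was at 0.273 to 0.369 of *Serpina1b* in 3 of the E8.5 libraries, where both were low, and at 0.0211 in E8.5 cKO replicate 1. At E9.5 it was at 0.212 in WT replicate 1 and at 0.0130 to 0.0184 in the other 3 libraries.

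**Figure D1:**
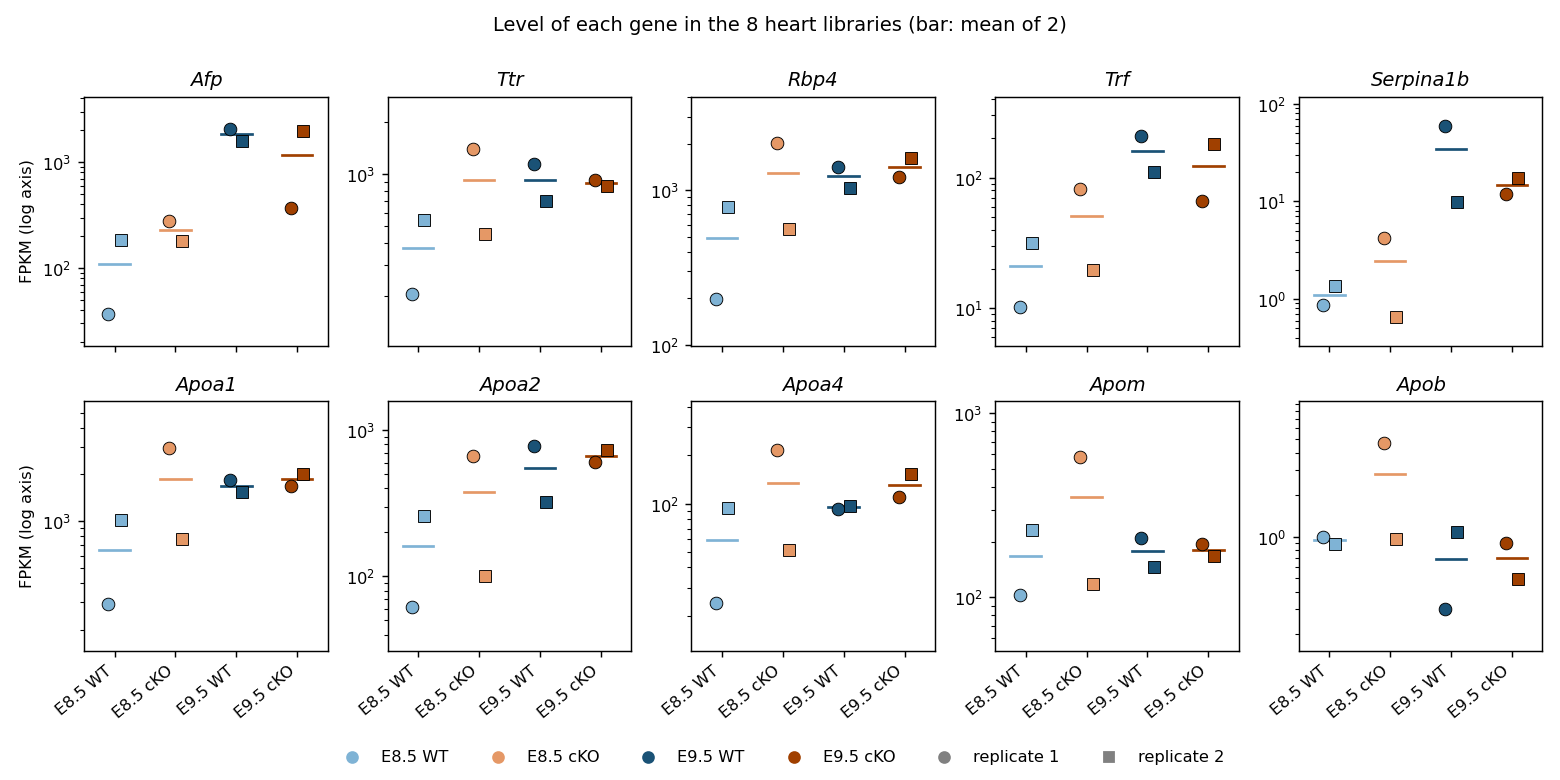
Level of each of the 10 genes in the 8 libraries (vertical axes, FPKM on log scales with a range of their own; horizontal axes, the 4 groups; circles, replicate 1; squares, replicate 2; bars, means of 2 libraries). *Afp* and *Serpina1b* separate the stages, while for *Apoa1*, *Rbp4*, *Ttr*, *Apoa4*, *Apom* and *Apob* the highest library is E8.5 cKO replicate 1.

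The 10 genes together made up 931.9 to 8185 FPKM, with the lowest sum in E8.5 WT replicate 1 and the highest in E8.5 cKO replicate 1. As a share of the summed FPKM of a library the order was different: E8.5 WT replicate 1 was again lowest (0.105%), but E9.5 cKO replicate 2 (0.694%) and E9.5 WT replicate 1 (0.638%) were above E8.5 cKO replicate 1 (0.597%). E9.5 cKO replicate 1 had a share of 0.267%, below that of E8.5 WT replicate 2 (0.329%). In bulk hearts, fewer cells of a type and less RNA per cell cannot be told apart, so the sum does not measure an amount of tissue. Within the E8.5 libraries the genes kept 1 order: for 8 of the 10, E8.5 WT replicate 1 was lowest, followed by E8.5 cKO replicate 2, E8.5 WT replicate 2 and E8.5 cKO replicate 1. That order was taken by 1.90% of all tested genes, and also by 9 of the 23 other plasma protein genes and 5 of the 10 genes of a list of uptake receptors and the brush border, so it was not particular to the 10 genes. The exceptions were *Serpina1b* and *Apob*, for which E8.5 cKO replicate 1 was still the highest.

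The levels were next set relative to *Apoa1* in the same library, which removes the scaling between libraries. *Rbp4* stood at 67.4% to 80.0% of *Apoa1* in all 8 libraries, a 1.19-fold range while *Apoa1* itself varied 10.1-fold. *Ttr* stood at 42.5% to 70.5% and *Apoa4* at 5.08% to 9.34%. These ratios overlapped between E8.5 and E9.5, as did those of *Apoa2* (13.0% to 25.8% and 20.9% to 43.0%). Over the 8 libraries, *Rbp4* and *Apoa1* had a Pearson r of 0.996 on the log2(FPKM + 1) scale, and 0.994 for the deviations from group means. For the 10 pairs among *Ttr*, *Rbp4*, *Apoa1*, *Apoa2* and *Apoa4*, r was 0.891 to 0.996, against -0.363 to 0.700 for the 9 pairs with *Apob*. All pairs share the same 8 libraries and their depth, so r is a description.

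Other ratios differed by stage. *Trf* was at 2.54% to 3.51% of *Apoa1* in the 4 E8.5 libraries and at 3.92% to 11.4% in the 4 E9.5 libraries. *Serpina1b* was at 0.0854% to 0.294% at E8.5 and 0.641% to 3.25% at E9.5. In the opposite direction, *Apom* was at 15.3% to 35.1% at E8.5 and at 8.28% to 11.5% at E9.5, and *Apob* at 0.0878% to 0.338% and 0.0165% to 0.0704%. Thus 2 of the 9 ratios were higher in all E9.5 libraries (0.21% of all tested genes were), 2 were lower (19.5% of all tested genes were), and 5 overlapped. *Afp* was at 9.49% to 23.4% of *Apoa1* at E8.5, at 113.8% and 103.7% in E9.5 WT and at 97.2% in E9.5 cKO replicate 2. In E9.5 cKO replicate 1 it was at 22.1%, inside the E8.5 range, although *Apoa1* in that library (1688 FPKM) was close to its replicate (2019 FPKM).

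Some other ratios of E9.5 cKO replicate 1 were also at the E8.5 side of the E9.5 range, and some were not. Its *Trf* ratio of 3.92% was the lowest of the stage, and its ratios of 19.3% for *Apoc2* and 0.524% for *Apoc3* were the highest. Its *Apom* ratio of 11.5% was equal within rounding to that of E9.5 WT replicate 1, and its ratios of 0.707% for *Serpina1b* and 0.0532% for *Apob* lay between those of other E9.5 libraries. *Apoc2* and *Apoc3*, which encode the activator and an inhibitor of lipoprotein lipase, are not among the 10 genes. They were at 54.6% to 76.9% and 1.10% to 1.96% of *Apoa1* at E8.5 and at 11.2% to 19.3% and 0.228% to 0.524% at E9.5. Over the 10008 other tested genes, that library lay 95.1% of the way from the mean E8.5 WT to the mean E9.5 WT library, and E9.5 cKO replicate 2 lay 106.6% of the way. The E9.5 WT libraries, which define the line, lay at 106.1% and 93.9%. The line was drawn without further scaling, and 80.1% of all tested genes were lower in both E9.5 WT than in both E8.5 WT libraries. The part of that common fall in a position was not tested.

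**Figure D2:**
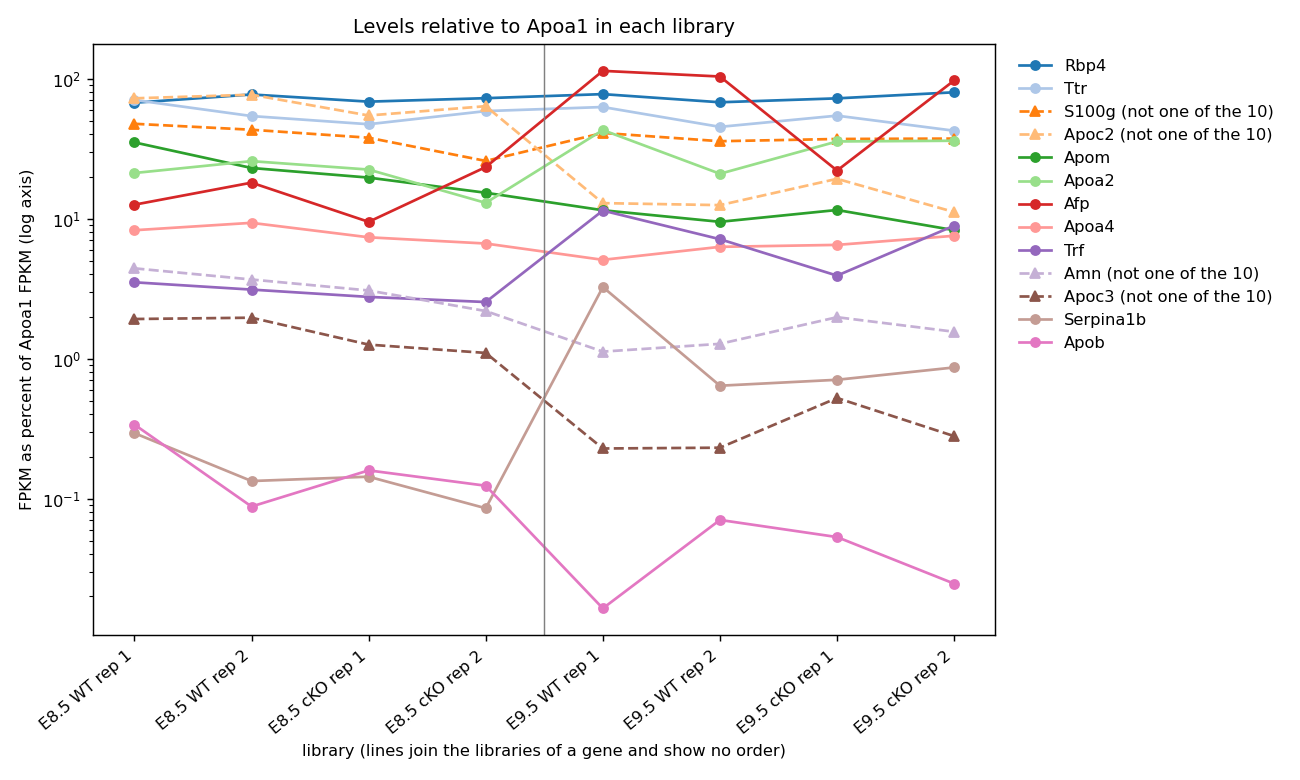
FPKM of 9 of the 10 genes (circles, solid lines) and of *S100g*, *Apoc2*, *Amn* and *Apoc3* (triangles, dashed lines) as a percentage of *Apoa1* FPKM in the same library (vertical axis, log scale; horizontal axis, the 8 libraries; the vertical line divides the stages). *Rbp4* stays between 67.4% and 80.0%, while *Afp* is near 100% of *Apoa1* in 3 of the 4 E9.5 libraries and at 22.1% in E9.5 cKO replicate 1.

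The promoters of these genes were read for the same contrast, since *Apoa1* and *Rbp4* kept their ratio while *Serpina1b*, and *Afp* in 3 of the 4 libraries, were higher relative to *Apoa1* at E9.5. RefSeq windows on GRCm38.p6 were found for 8 of the 10 genes. The set of windows used here held none for *Ttr* and *Trf*. The 250 bases before the start are shown 5′ to 3′ on the strand of the gene, with matches to the searched motifs in capitals: *Apoa1* at chr9:46228380-46228629 (plus strand), *Rbp4* at chr19:38125322-38125571 (minus strand), *Afp* at chr5:90490464-90490713 (plus strand) and *Serpina1b* at chr12:103738190-103738439 (minus strand).
Apoa1: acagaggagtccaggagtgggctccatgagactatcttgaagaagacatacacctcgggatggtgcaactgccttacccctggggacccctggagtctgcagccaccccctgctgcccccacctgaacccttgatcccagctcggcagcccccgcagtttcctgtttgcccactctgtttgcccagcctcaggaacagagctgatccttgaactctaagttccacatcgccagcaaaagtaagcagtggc
Rbp4: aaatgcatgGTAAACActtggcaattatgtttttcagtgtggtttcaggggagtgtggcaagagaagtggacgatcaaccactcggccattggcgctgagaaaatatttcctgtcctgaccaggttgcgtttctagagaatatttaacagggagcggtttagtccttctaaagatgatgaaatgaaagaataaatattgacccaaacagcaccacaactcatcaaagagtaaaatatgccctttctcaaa
Afp: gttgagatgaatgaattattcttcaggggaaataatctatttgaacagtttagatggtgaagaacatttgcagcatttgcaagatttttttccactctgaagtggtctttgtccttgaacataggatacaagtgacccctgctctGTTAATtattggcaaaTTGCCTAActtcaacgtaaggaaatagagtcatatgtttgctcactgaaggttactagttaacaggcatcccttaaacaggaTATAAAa
Serpina1b: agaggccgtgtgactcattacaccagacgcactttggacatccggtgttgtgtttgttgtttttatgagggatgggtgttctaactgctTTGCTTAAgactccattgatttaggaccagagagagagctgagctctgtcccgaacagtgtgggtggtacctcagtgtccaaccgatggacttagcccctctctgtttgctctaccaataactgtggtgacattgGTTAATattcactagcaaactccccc

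Motifs of liver-type factors and the TATA box were searched on both strands. The HNF1-type motif GTTAAT was present in the windows of *Afp* (first base at -105, where -1 is the base before the start) and *Serpina1b* (first base at -26) and in those of 2 of the 8 genes in all, against 6.43% of all 32851 windows of the same length. The C/EBP-type motif TTGCNNAA was held by *Afp*, *Apoa2*, *Serpina1b* and *Apob*, 4 of 8 against 9.56% of all windows. The FOX-type motif TGTTTAC occurred in *Rbp4* alone (3.17% of all windows), the nuclear receptor motif AGGTCA in *Apoa2* alone (14.0%) and TATAAA in *Afp* and *Apob* (12.4%). The HNF4-type motif CAAAGTCCA was in none of the 8 (0.384% of all windows). *Apoa1*, *Apoa4* and *Apom* held no match to these letters in this window. No overlap between matches was found in the 4 windows shown, and a match is a string of letters, not a bound site.

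The first comparison asked how the genes differed between E8.5 and E9.5 in WT hearts. The median log2 change of the 10 genes was 1.63 (2.62 under median-ratio scaling), against -0.84 for all tested genes. *Afp* had the largest log2 change, 4.45 (SE 0.88), followed by *Serpina1b* with 3.61 (SE 0.79), *Trf* with 2.99 (SE 0.80) and *Apoa2* with 1.97 (SE 0.94). *Rbp4*, *Apoa1* and *Ttr* lay together at 1.63 (SE 0.73), 1.62 (SE 0.70) and 1.41 (SE 0.61). The smallest were *Apoa4* with 0.97 (SE 0.75), *Apom* with 0.18 (SE 0.70) and *Apob* with -0.24 (SE 0.48), the last of which changed sign under both other scalings of the libraries (0.18 and 0.56). In 7 of the 10 genes both E9.5 libraries were above both E8.5 libraries, which was so for 5.43% of all tested genes, and *Apom*, *Apoa4* and *Apob* overlapped. Without E9.5 WT replicate 1, 9 of the 10 were higher (7.21% of all tested genes), with *Apom* the exception. Without E9.5 WT replicate 2, 7 were higher and 1 lower (8.97% and 83.4% of all tested genes). Without E8.5 WT replicate 1, 7 were higher and 1 lower (7.36% and 85.4%), and the median log2 change was 0.72, against 2.57 without E8.5 WT replicate 2. With 2 libraries on each side, the smallest two-sided p of an exact permutation test is 0.333.

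In cKO hearts the same comparison gave a median log2 change of 0.35 (1.10 under median-ratio scaling), against -0.64 for all tested genes. *Serpina1b* (2.39, SE 0.79) and *Afp* (1.92, SE 0.88) were again at the top, and both had all E9.5 above all E8.5 libraries (7.05% of all tested genes did). *Trf* had a log2 change of 1.42 (SE 0.80) and *Apoa2* 1.36 (SE 0.94), while *Rbp4* (0.40, SE 0.73), *Apoa1* (0.29, SE 0.70), *Apoa4* (0.29, SE 0.75) and *Ttr* (0.16, SE 0.61) lay within 1 SE of 0. *Apob* was lower in both E9.5 libraries (-0.98, SE 0.48), as were 62.7% of all tested genes. *Apom* had a log2 change of -0.53 (SE 0.70), which was 0.22 under median-ratio scaling. These values turned on E8.5 cKO replicate 1. Without it, 9 of the 10 genes were higher in all E9.5 libraries (20.8% of all tested genes were) and *Apob* was lower (68.7% were). Without E8.5 cKO replicate 2, 2 were higher and 6 lower, against 10.2% and 80.3% of all tested genes. The genotype difference of the stage change had a negative log2 value for all 10 genes, from -2.52 (*Afp*, SE 1.24) to -0.61 (*Apoa2*, SE 1.33), with a median of -1.22 against 0.18 for all tested genes. Without E8.5 cKO replicate 1 the median was -0.33 and 4 of the 10 were above 0, without E8.5 WT replicate 1 it was -0.49 with 2 above 0, and without E9.5 WT replicate 1 it was -0.95 with 2 above 0. *Apob* passed the filter only through E8.5 cKO replicate 1. Its fall in cKO hearts (-0.98) and its negative genotype difference (-0.75) were therefore fixed in part by the filter. The 4 comparisons share their groups of libraries, so these values are not independent of one another.

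At E8.5 all 10 genes had a higher mean in cKO than in WT hearts on the log2 scale, from 0.49 (*Serpina1b*, SE 0.79) to 1.47 (*Apoa1*, SE 0.70), with a median of 1.11 against -0.28 for all tested genes. For *Apob* (0.78, SE 0.48), which passed the filter through a cKO library of this stage, a higher mean there was fixed in part by the filter. None of the 10 separated the genotypes, since the 4 libraries interleaved as described above, and both cKO libraries were above both WT libraries for 2.54% of all tested genes. The counts turned on single libraries. Without E8.5 cKO replicate 1 the median was 0.10, 7 of the 10 genes had a higher mean in cKO hearts, and 0 were higher and 1 lower in all cKO libraries (18.4% and 64.4% of all tested genes). Without E8.5 WT replicate 1 the median was 0.33, and 1 was higher and 0 lower (7.58% and 51.0%). Without E8.5 cKO replicate 2 the median was 2.08, and 10 were higher and 0 lower (17.6% and 61.6%). Without E8.5 WT replicate 2 it was 1.99, and 8 were higher and 0 lower (8.95% and 55.5%). On the line from the mean E8.5 WT to the mean E9.5 WT library, drawn over the other 10008 tested genes, E8.5 cKO replicates 1 and 2 lay at 35.5% and 23.6%. The median level of the tested genes was also lower in those libraries (7.75 and 7.62 FPKM, against 9.90 and 9.55 FPKM in E8.5 WT). Both E8.5 cKO libraries were below both E8.5 WT libraries for 40.1% of all tested genes. The E8.5 WT libraries average 0% by construction, and a library that did not define the line can lie above 0% through the spread of that mean. How much of these positions is a shift, and its part in the levels of the 10 genes, was not tested.

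At E9.5 the median log2 change between cKO and WT hearts was 0.04, against -0.07 for all tested genes, and 6 of the 10 genes were above 0. *Afp* was lowest (-1.09, SE 0.88), with *Serpina1b* (-0.73, SE 0.79) and *Trf* (-0.47, SE 0.80) next, and *Apoa4* highest (0.44, SE 0.75). *Ttr* (-0.01, SE 0.61) was above 0 under both other scalings (0.11 and 0.22). *Apoa4* was the only gene with both cKO libraries above both WT libraries, which held for 21.0% of all tested genes. The direction turned on single WT libraries. Without E9.5 WT replicate 1 the median was 0.33, with 7 genes higher and 1 lower in all cKO libraries (36.8% and 44.1% of all tested genes). Without E9.5 WT replicate 2 it was -0.23, with 2 higher and 6 lower (31.0% and 45.0%). *Afp*, *Serpina1b* and *Trf*, with *Apoa2* (0.40, SE 0.94), were those in which E9.5 WT replicate 1 was the highest of all 8 libraries.

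**Figure D3:**
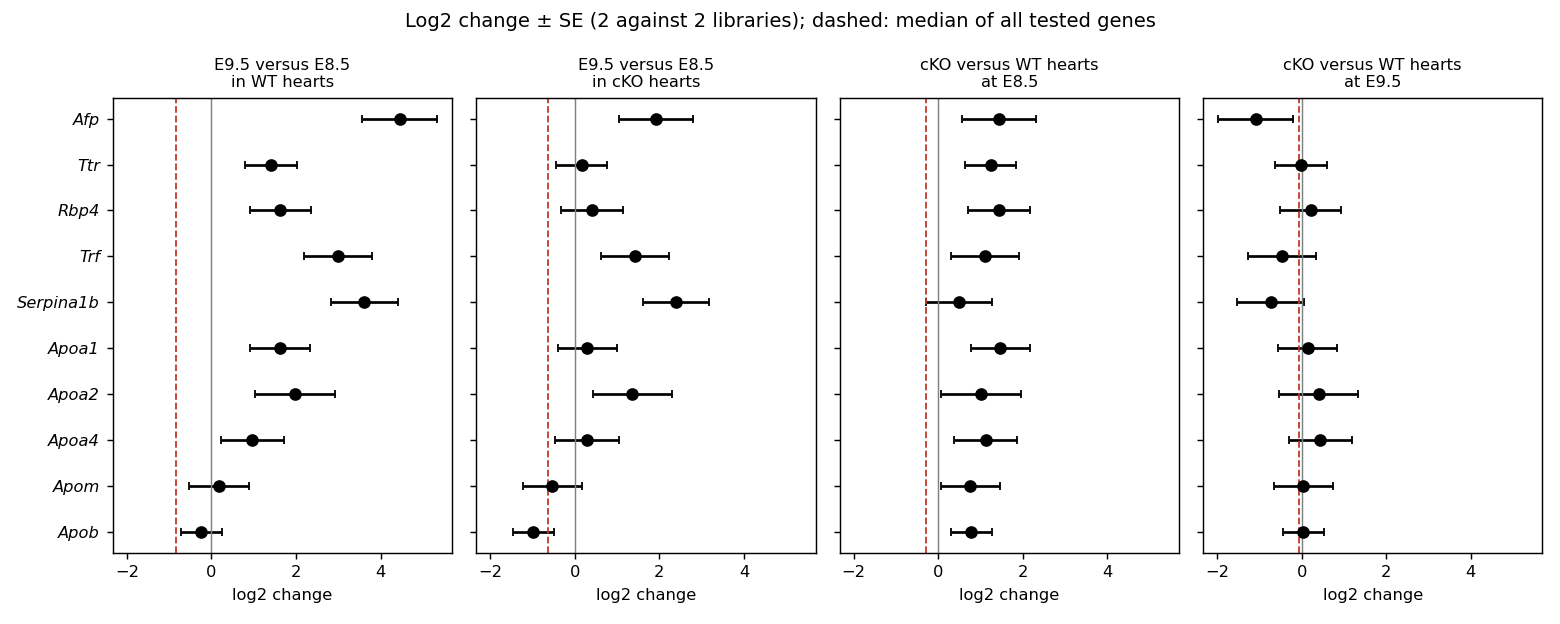
Log2 change (horizontal axes, on the log2(FPKM + 1) scale) of the 10 genes (rows) in 4 comparisons of 2 against 2 libraries (panels), with bars of 1 SE from the limma model and a dashed line at the median of all tested genes. In WT hearts 9 of the 10 genes lie above 0 at E9.5, and the genotype difference is above 0 for all 10 at E8.5 and runs from -1.09 (*Afp*) to 0.44 (*Apoa4*) at E9.5.

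Endoderm genes outside the 10 were tested next, on lists that were also drawn up with earlier results of these hearts known. Of 55 genes in 5 lists, 39 were tested with limma. Between the stages, 2 rose and 3 fell by E9.5 in WT hearts (adjusted p under 0.05 and at least 1.5-fold), against 48.1% of all tested genes called in either direction. The genes that rose were *Serpina1c* (log2 2.41, SE 0.73, limma adjusted p 0.0308) and *Serpina1d* (1.87, SE 0.63, limma adjusted p 0.0404), close copies of *Serpina1b* (2.83 and 2.19 under median-ratio scaling and 3.02 and 2.36 under quantile normalization, with adjusted p of 0.0894 to 0.173). Those that fell were the keratin genes *Krt8* and *Krt18* and *Spink1*, the gene of a trypsin inhibitor, with log2 changes of -1.16, -1.13 and -1.79 (-0.17, -0.13 and -0.79 under median-ratio scaling, -1.20, -0.95 and -2.16 under quantile normalization). None of the 5 calls was made under median-ratio scaling or quantile normalization, without E9.5 WT replicate 1, or without either E8.5 WT library. *Serpina1d* had 8.25 FPKM in E9.5 WT replicate 1 and 0.0282 to 2.10 FPKM elsewhere. It would have missed the filter without that library, so its rise in WT hearts was fixed in part by the filter. The median of the 39 was -0.26, which is 0.57 above the median of all tested genes.

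In cKO hearts *Krt19* rose (2.49, SE 0.52, limma adjusted p 0.0179) and *Dab2*, an adaptor of endocytosis, and *Spink1* fell (-1.73 and -1.58, limma adjusted p 0.0257 and 0.0397), against 30.6% of all tested genes called. *Krt19* remained past the threshold under median-ratio scaling (3.24, adjusted p 0.0201) but not under quantile normalization (2.69, adjusted p 0.0572). *Dab2* and *Spink1* were lost under median-ratio scaling (-1.01 and -0.82, adjusted p 0.188 and 0.254) and under quantile normalization (-1.04 and -1.58, adjusted p 0.174 and 0.105). Median-ratio scaling thus gave 2 genes that rose and 0 that fell, in place of 1 and 2, and without either E9.5 cKO library the count of calls was 0. Between the genotypes, limma called 0 of the 39 genes at E8.5 (1 at an unadjusted p under 0.05, 0.00998% of all tested genes called) and 0 at E9.5 (5 at an unadjusted p under 0.05, 0.18% called). The difference between genotypes of the stage change was called for 0 of the 39 (2 at an unadjusted p under 0.05, 0.0399% called).

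The genes nearest to the mean profile of the 10 over the 8 libraries were *F2*, the prothrombin gene (Pearson r 0.968), *S100g*, which encodes a vitamin D-dependent calcium-binding protein (0.964), and *Fga*, a fibrinogen chain (0.938). These 3 were on the lists of endoderm genes. *Spp2* (0.927), *Tff3* (0.925) and *Tnni1* (0.916) followed, the last a troponin gene of the embryonic heart, and the 15th gene, *Camk2a*, had an r of 0.892. *S100g* had 139.1 and 437.3 FPKM (WT) and 1116 and 199.3 FPKM (cKO) at E8.5, and 748.5 and 549.5 FPKM (WT) and 626.4 and 753.9 FPKM (cKO) at E9.5, which is 25.9% to 47.6% of *Apoa1*. By deviations from the group means, *Ndufab1* (0.997), *Gipc2* (0.994) and *Spink2* (0.993) came first, with *F2* (0.988) and *S100g* (0.983) among the first 10. The 8 libraries and their depth are common to all these profiles, so r is a description over 8 points.

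The 39 other endoderm genes varied widely in this respect, with r for the deviations from group means between -0.779 (*Krt19*) and 0.988 (*F2*). *Apoc2* had an r of 0.092 with the mean profile and 0.894 for deviations, *Apoc3* 0.059 and 0.895, and *Amn* 0.573 and 0.938. *Hnf4a* had values of 0.383 and 0.843. Values below 0 for the deviations were found for *Krt8* (-0.660 and -0.734), *Krt18* (-0.395 and -0.489), *Pltp* (-0.259 and -0.665), *Cdh1* (-0.551 and -0.296) and *Epcam* (-0.383 and -0.284) as well as *Krt19*.

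Markers of other tissues were counted beside the 10 genes. In E9.5 WT replicate 1, 19 of the 23 other plasma protein genes reached 1 FPKM, against 10 to 15 in the other 7 libraries, and 13 of the 23 had their highest level there. Another 5, among them *Apoc2*, *Apoc3* and *Apoe*, were highest in E8.5 cKO replicate 1, and *Fga* (5.54 FPKM, against 9.59 in E9.5 cKO replicate 2) and *F2* were highest in E9.5 cKO replicate 2. Of the 13, *Ambp* had 106.4 FPKM in E9.5 WT replicate 1 (1.41 to 3.39 elsewhere), *Vtn* 27.6 FPKM (0 to 2.88 elsewhere), *Serpinf2* 67.8 FPKM (3.15 to 23.0 elsewhere) and *Serpina6* 4.91 FPKM, a gene listed at 0 in the other 7. *Alb*, which lies 14111 bp from *Afp*, had 4.48 FPKM there and at most 0.0375 FPKM elsewhere. The 8 liver bud genes summed to 24.1 FPKM in that library, 3 of them at 1 FPKM or more, and to 4.85 to 27.9 FPKM in the others. These sums were mostly *Hhex* and *Prox1* (16.6 and 2.39 FPKM in E9.5 WT replicate 1). Apart from *Alb*, the other genes of that list reached at most 0.428 FPKM in any library. *Afp*, *Trf*, *Apoa2* and *Serpina1b* were highest in E9.5 WT replicate 1 as well. The part of liver-type RNA in those levels was not tested.

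Foregut genes were low at E9.5 (7 genes, sums of 0.0164 to 1.46 FPKM) and reached 135.7 FPKM in E8.5 WT replicate 1, of which *Pyy* was 131.9 FPKM. Decidual and natural killer cell genes reached sums of 721.6 and 1142 FPKM (WT) and 10.6 and 5106 FPKM (cKO) at E8.5, and of at most 6.61 FPKM at E9.5. Of the E8.5 sums, *Prl8a2* alone was 448.8 and 1141 FPKM (WT) and 9.95 and 5104 FPKM (cKO). The granzyme genes *Gzmd*, *Gzme* and *Gzmg* were above 1 FPKM only in E8.5 WT replicate 1 (115.6, 69.7 and 76.9 FPKM). Trophoblast genes followed with 56.9, 144.0, 10.8 and 1093 FPKM at E8.5. The library with the highest levels of the 10 genes at E8.5, cKO replicate 1, was thus the lowest in both maternal and trophoblast lists at that stage. The 8 primitive erythroid genes, which mark the blood cells of the yolk sac, had E8.5 sums of 7790 and 23840 FPKM (WT) and 35520 and 9754 FPKM (cKO), made up mostly of globin RNA. The sums lay in the order of the 10 genes, but gene by gene it was taken by 1 of the 8 (*Hbb-bh1*) and by 3 of the 9 cardiomyocyte genes (*Tnni1*, *Myl7* and *Actc1*). At E9.5 the erythroid sums (14430 and 29570 FPKM in WT, 39590 and 29110 FPKM in cKO) were not in the order of the 10 genes (7827 and 5553, 5186 and 7698 FPKM), and the part of blood in any of these levels was not tested.

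**Figure D4:**
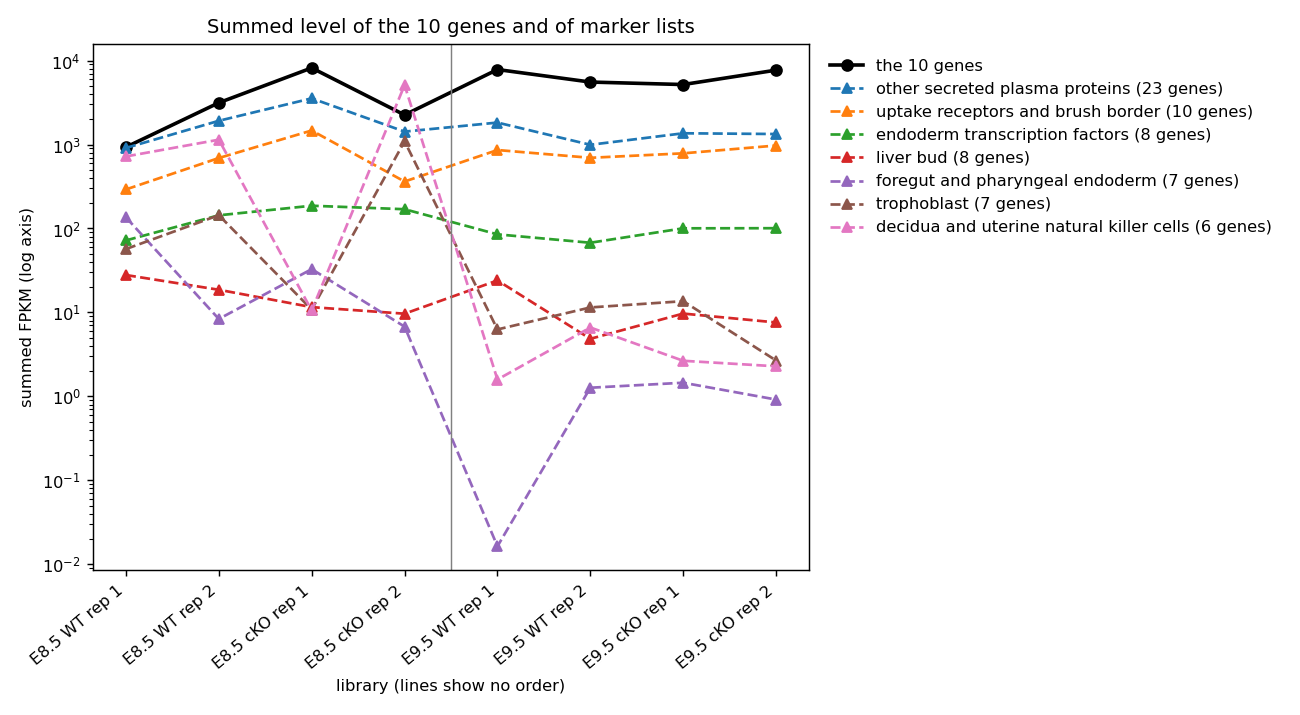
Summed FPKM (vertical axis, log scale) of the 10 genes (black circles) and of 7 marker lists (triangles) in the 8 libraries (horizontal axis; the vertical line divides the stages). The 10 genes run from 931.9 to 8185 FPKM, and the decidual list runs from 10.6 to 5106 FPKM at E8.5 and is lowest there in the library where the 10 genes are highest. The E8.5 sums of the decidual list are mostly *Prl8a2*.

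Receptors and partners of the secreted proteins were measured in the same hearts, and all 12 genes of that list were tested. From E8.5 to E9.5, 0 rose and 4 fell in WT hearts (48.1% of all tested genes were called), and 0 rose and 3 fell in cKO hearts (30.6% of all tested genes), shares that do not exceed those of all tested genes. In the list 0 genes were called by limma between the genotypes at E8.5 or E9.5 (1 and 2 at an unadjusted p under 0.05). *Cyp26a1*, the gene of the enzyme that degrades retinoic acid, fell most in WT hearts, from 28.7 and 24.1 to 0.123 and 0.725 FPKM (log2 -4.29, SE 0.29, limma adjusted p 0.00167), and remained past the threshold under both other scalings. In cKO hearts it fell from 17.2 and 13.6 to 2.86 and 3.84 FPKM (-1.91, SE 0.29, limma adjusted p 0.0160). Under the other scalings its log2 change there was -1.27 and -1.20, with limma adjusted p of 0.0599 and 0.0716. *Rdh10*, which encodes a retinol dehydrogenase, fell in both genotypes (-1.24 and -0.83), *Lrp1* and *Gpihbp1* fell in WT hearts (-0.83 and -1.78), and *Crabp2*, the gene of a retinoic acid carrier, fell in cKO hearts (-1.92). Apart from *Cyp26a1* in WT hearts, none of these was past the threshold under median-ratio scaling or quantile normalization. *Rdh10* and *Gpihbp1* were at 0.308 to 0.784 and 0 to 0.184 FPKM in the 4 E9.5 libraries. Both would have missed the filter without the E8.5 WT libraries, so their fall in WT hearts was fixed in part by the filter. The transferrin receptor gene *Tfrc* overlapped between the stages in WT hearts, with 29.6 and 15.3 FPKM early and 1.76 and 20.9 FPKM late.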

How the data were processed

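The 8 libraries were grouped by stage and genotype from the sample labels. The methods state amplification of total RNA by Smart-seq2 (the labels name a SMARTer kit). It was sequenced on an Illumina instrument by 2 companies, without a statement of which library went to which, and mapped to mm9 with BWA. The authors deposited 1 FPKM value per gene and library, with no further scaling stated. The program that made them is not given in the sources used here. The loci of the table lie at GRCm38 starts (91.7% of 9513 genes within 1000 bp), and coordinates are given on it, counted from 1.

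Of 24930 entries, 285 symbols were listed more than once and the highest mean was kept. No column was left out (0). Those with a mean FPKM of 1 or more were analysed as log2(FPKM + 1), which understates changes of low genes. Library depth was estimated from values under 0.3 FPKM and the lengths of 334 genes with a single transcript (12900000 fragments in E8.5 WT replicate 1, quartiles 12500000 and 13200000).

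Group differences came from limma 3.58.1 (R 4.3.3), with 1 model of the 4 groups, two-sided tests and Benjamini-Hochberg adjustment over 10018 genes. A call needed an adjusted p under 0.05 and 1.5-fold. The procedure was tested on simulated data. The study states that replicates were biological, and p-values measure the spread between 2 libraries. The 10 genes and all gene lists were chosen with earlier results of these data known. Named were the 10 genes, list genes that were called or had the highest means, the 15 and 10 genes with the most similar profile, and neighbours at the same locus. Other genes named as markers or for their ratios, and the counts without a single library, were chosen after seeing the data. Other scalings, filters and pseudocounts, a replicate block and leaving out each library were tried.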

Additional observations from a re-analysis of the deposited data

How the results depend on the processing

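The counts of the 39 other endoderm genes called rested on the scaling, the filter and single libraries. For E9.5 against E8.5 in WT hearts the count of 5 became 0 under median-ratio scaling, 0 under quantile normalization and 0 without a filter on low values, and lay between 0 and 9 when single libraries were left out. In cKO hearts the count of 3 (1 higher, 2 lower) became 2 (2 higher, 0 lower) under median-ratio scaling, 0 under quantile normalization and 0 without a filter, and lay between 0 and 9 without single libraries (9 without E8.5 cKO replicate 2, 0 without either E9.5 cKO library). Between genotypes at E9.5 the count of 0 became 1 under median-ratio scaling and lay between 0 and 2 without single libraries. At E8.5, and for the difference between genotypes of the stage change, it was 0 under all alternatives run. Without a filter more genes shared the adjustment. Leaving out a library leaves fewer samples, yet some counts rose when a library was left out. The cause of these shifts was not tested.

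The median log2 change of the 10 genes moved with single libraries. For the stage change in WT hearts it was 1.63 as reported, 2.62 under median-ratio scaling and 0.72 to 2.57 without single libraries (0.72 without E8.5 WT replicate 1). In cKO hearts the 0.35 became 1.10 under median-ratio scaling, 1.32 without E8.5 cKO replicate 1 and -0.59 without E8.5 cKO replicate 2. The 1.11 between genotypes at E8.5 became 0.10 without E8.5 cKO replicate 1 and 0.33 without E8.5 WT replicate 1, and 2.08 and 1.99 without their replicates. The 0.04 at E9.5 lay between -0.23 and 0.33, and the difference between genotypes between -2.05 and -0.33 (-1.22 as reported).

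Same-numbered replicates deviated together at r of -0.116 to 0.195, so no strong pairing by replicate number was seen. A weak pairing can give such values too. A replicate block gave 6 calls in place of 5 in WT hearts and 3 in cKO hearts. A crossed pairing of the WT libraries, chosen after seeing the data, gave 5 calls.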
